A study of Mus musculus with 12 samples.

Results

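The subunits of the mitochondrial respiratory chain were followed in sorted mouse bone marrow macrophages, with and without leukemia. Members were the genes whose symbols name subunits of complexes I to V and that had at least 10 counts in at least 3 libraries. The symbols matched 117 entries of the 56832 genes in the table. Of these, 14 were pseudogenes with names ending in -ps, and 14 of the remaining 103 did not reach the minimum. The 89 members comprised 81 genes of the nuclear genome, with 36 in complex I, 4 in complex II, 8 in complex III, 16 in complex IV and 17 in complex V, and 8 of the 13 genes of the mitochondrial genome. All 89 passed the low-count filter of the test, which kept 15758 genes in all.

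The respiratory chain carries electrons from NADH and succinate to oxygen through complexes I to IV of the inner mitochondrial membrane, and pumps protons as it does so. Complex V, the ATP synthase, lets the protons back and makes ATP. Most subunits are made from nuclear genes and imported, while a small set of core membrane subunits is made inside the organelle from mitochondrial DNA, so that all complexes except complex II, which is entirely nuclear, need both genomes. In macrophages the balance between respiration and glycolysis is known to differ between activation states.

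Libraries came from cells gated as CD45+, F4/80+, Ly6g- and Ly6c-, with 3 replicates each from male and female non-leukemic mice, described as healthy, and from male and female leukemic mice. The leukemic mice had received transplanted cells of a mouse leukemia model abbreviated bcCML, were at a late disease stage and are labelled day 11. The labels give no strain, age or transgene. They do not say whether the healthy mice had a transplant or whether a replicate is its own animal or a pool, so that each p measures the spread between libraries.

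Total counts ran from 16911827 to 30014855 per library. 1 library, female leukemic replicate 1, stood apart from the rest: 17891 genes were detected in it, against 19521 to 21247 in the other 11, and each result that rests on it is given with and without it. Male non-leukemic replicate 3, which held the lowest share of nuclear members among the non-leukemic libraries (1.55%), was left out together with it in a further fit. Female leukemic replicate 1 held the highest such share among the leukemic libraries (2.06%). Leaving out either one favours lower calls among members. Fits without them show how the results depend on these libraries and give no independent support. Macrophage genes were present but scarce: the 18 on a list of general macrophage markers together held 0.164% to 0.512% of counts in non-leukemic and 0.0596% to 0.133% in leukemic libraries. Of these 18, 9 were lower in leukemia. The 14 neutrophil genes held a larger share of counts in every library, 2.93% to 6.79% without leukemia and 1.34% to 2.85% with it, with 9 lower. The 12 erythroid genes, all lower, held 1.52% to 1.97% in non-leukemic and 0.0793% to 0.154% in leukemic libraries. All 13 T and NK cell genes were higher, with 0.0309% to 0.0607% of counts in non-leukemic and 0.134% to 0.277% in leukemic libraries. Of 10 B and plasma cell genes none passed with edgeR, DESeq2 or limma-voom or had an unadjusted p under 0.05, and female leukemic replicate 1 alone gave them 1.05% of its counts, against 0.0797% to 0.475% in the other leukemic libraries. Of the eosinophil, basophil and mast cell genes 5 of 13 were higher and 2 lower, of the platelet genes 1 of 7 in each direction, of the stem and progenitor genes 5 of 9 higher, and of the proliferation genes 8 of 12 lower. Over all genes tested, edgeR called 9.2% lower and 8.71% higher. No gene on these lists was at 0 in every library. The part of this mixture in the results that follow was not tested, and in bulk RNA fewer cells of a type and less RNA per cell cannot be told apart.

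Of the 13 protein genes of mitochondrial DNA, 5 were absent from the counts, and the reference shows what is next to them in sequence. mt-Co2, mt-Atp6, mt-Atp8 and mt-Nd4l were at 0 in all 12 libraries, and mt-Co3 had 1 count, in male non-leukemic replicate 2. These genes encode core subunits of cytochrome c oxidase (mt-Co2 and mt-Co3), the proton channel and an accessory protein of the ATP synthase (mt-Atp6 and mt-Atp8) and a membrane subunit of complex I (mt-Nd4l). In GRCm38, mt-Co2 lies at chrM:7013-7696, and 7 of the annotated nuclear copies of mitochondrial genes lie side by side on the minus strand of chromosome 1, between 24611535 and 24616197. The share of 100-base windows of a gene that occur unchanged in another annotated transcript was 99.9% for mt-Co3, 99.5% for mt-Co2 and mt-Atp6 and 98.5% for mt-Nd4l. mt-Atp8 had no annotated copy of its own, and its place in the gene order falls in the gap between the copies of mt-Atp6, ending at 24614651, and mt-Co2, starting at 24614885. Among the 8 genes with counts, the share of such windows was 97.6% for mt-Nd3, 60.8% for mt-Nd4, 30.8% for mt-Co1, 3.19% for mt-Nd2 and 0 for mt-Nd1, mt-Nd5, mt-Nd6 and mt-Cytb. mt-Nd3, the gene with the highest share among those counted, had a median of 2.68 CPM (counts scaled to the library total) in the non-leukemic libraries.

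The beginning of mt-Co2, a gene with no counts, and a stretch of mt-Nd2, a counted gene, are set beside their nuclear copies to show how close the copies are. Sequences run 5′ to 3′ in the GRCm38 transcripts, mt-Co2 from base 1 to 60 and mt-Nd2 from base 667 to 726, and capitals mark bases that differ between a gene and its copy.

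mt-Co2: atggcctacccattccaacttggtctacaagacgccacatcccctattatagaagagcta
Gm28661: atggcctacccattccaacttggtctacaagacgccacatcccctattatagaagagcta
mt-Nd2: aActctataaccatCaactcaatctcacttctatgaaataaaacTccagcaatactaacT
Gm13339: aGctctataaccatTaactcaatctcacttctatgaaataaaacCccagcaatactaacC

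The mt-Co2 stretch was identical in Gm28661, as were all 681 aligned bases. The mt-Nd2 stretch had 4 differences from Gm13339, of 17 over 510 aligned bases. Gm13339 lies at chr2:22590024-22590533 on the minus strand. The copies took few counts themselves: Gm28661 and Gm10222, the copy of mt-Nd4l, had 0 in every library, and Gm10925, the copy of mt-Atp6, had 189, all in male non-leukemic replicate 3. How the authors' counting treated reads that fit more than 1 place is not given in the sources used here, and its part in the empty genes was not tested. Values of mt-Nd3, mt-Nd4 and mt-Co1 are therefore uncertain in level, and complexes IV and V are represented on the mitochondrial side by mt-Co1 alone and by no gene.

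In 5 of the 6 leukemic libraries the median member of every complex and of both genomes lay below the non-leukemic mean, and the distance was largest for the mitochondrial genes. The 8 mitochondrial genes held 0.218% to 0.374% of counts in the non-leukemic libraries, with a median of 0.321%, and 0.158% to 0.216% in the leukemic libraries other than female leukemic replicate 1, which held 0.383%, the highest of all 12. Female non-leukemic replicate 3 was the lowest non-leukemic library. Apart from female leukemic replicate 1 no leukemic library reached the non-leukemic range. The Wilson 95% interval was 0.156% to 0.159% around the share of 0.158% in male leukemic replicate 2, and such intervals cover counting error only. The 81 nuclear genes held 1.55% to 2% of non-leukemic counts, median 1.84%, and 1.45% to 1.65% in the same 5 leukemic libraries, so that these ranges overlapped. The value of female leukemic replicate 1 was 2.06%.

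**Figure D1:**
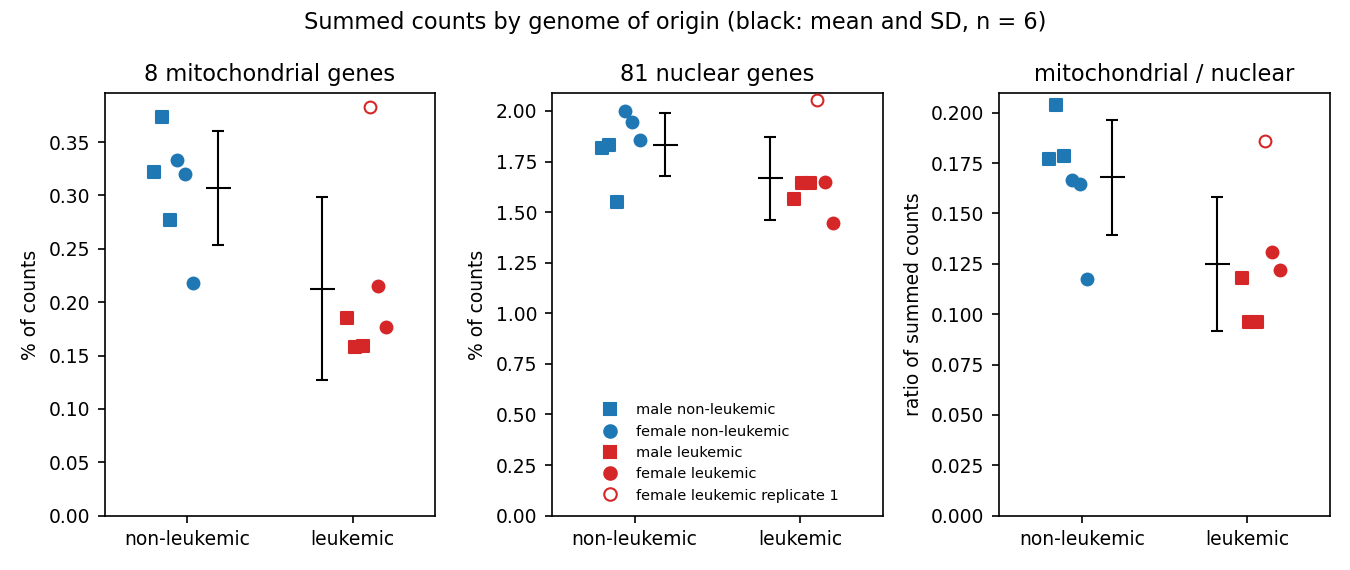
Share of each library's counts held by the 8 mitochondrial and the 81 nuclear members, in percent, and the ratio of their summed counts, for 6 non-leukemic and 6 leukemic libraries, with mean and SD in black. The open circle, female leukemic replicate 1, is the highest of all 12 libraries in both shares (0.383% and 2.06%).

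The ratio of mitochondrial to nuclear member counts was 0.168 ± 0.0285 (SD, n = 6) in the non-leukemic and 0.125 ± 0.0331 (SD, n = 6) in the leukemic libraries. Single libraries ran from 0.117 to 0.204 and from 0.0960 to 0.186. The ranges overlapped through female leukemic replicate 1 at the top, female non-leukemic replicate 3 at the bottom and 3 of the other leukemic libraries, at 0.118, 0.122 and 0.131. The ratio was lowest in the males with leukemia, 0.103 ± 0.0125 (SD, n = 3), against 0.186 ± 0.0151 (SD, n = 3) in the males without it. In the females it was 0.146 ± 0.0347 (SD, n = 3) with and 0.149 ± 0.0278 (SD, n = 3) without leukemia. The female value with leukemia rests on replicate 1, at 0.186, while replicates 2 and 3 were at 0.131 and 0.122. The females without leukemia ran from 0.117 to 0.167.

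Gene by gene, leukemic and non-leukemic libraries were compared with the quasi-likelihood test of edgeR, with sex as a term, and p adjusted over all genes tested. No member was higher and 6 were lower in leukemia, all nuclear: 3 of complex I, 1 of complex III and 2 of complex IV. Over all genes tested, 9.2% were called lower and 8.71% higher, so that the members' share called lower, 6 of 89, was near the background. At an unadjusted p under 0.05, 20 members were lower and none higher. DESeq2 called 11 lower and limma-voom 10, and neither called any member higher. For counts at an unadjusted p or by DESeq2 or limma-voom, no share over all genes is given here or below. The same holds for all other alternative fits, except those without female leukemic replicate 1, alone or with male non-leukemic replicate 3. Such counts are therefore not read against a background. The log2 fold change was negative in 81 of the 89, with a median of -0.19, against -0.01 over all genes tested.

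The same count was much larger without female leukemic replicate 1. The test then called 64 of 89 lower and none higher, 57 nuclear and 7 mitochondrial, against a background of 12% lower and 12.1% higher. The median over members was -0.35, against 0.01 over all genes. By complex, 26 of 36 nuclear genes of complex I, 2 of 4 of complex II, 7 of 8 of complex III, 11 of 16 of complex IV and 11 of 17 of complex V were lower. Without this library and male non-leukemic replicate 3 together, 59 nuclear and 7 mitochondrial members were lower and none higher (background 14.1% lower and 14.9% higher). As said above, that choice of libraries itself favours lower calls among members. Leaving out any other single library gave 4 to 8 nuclear calls and, for the mitochondrial genes, 0 calls, or 3 without female non-leukemic replicate 3.

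**Figure D2:**
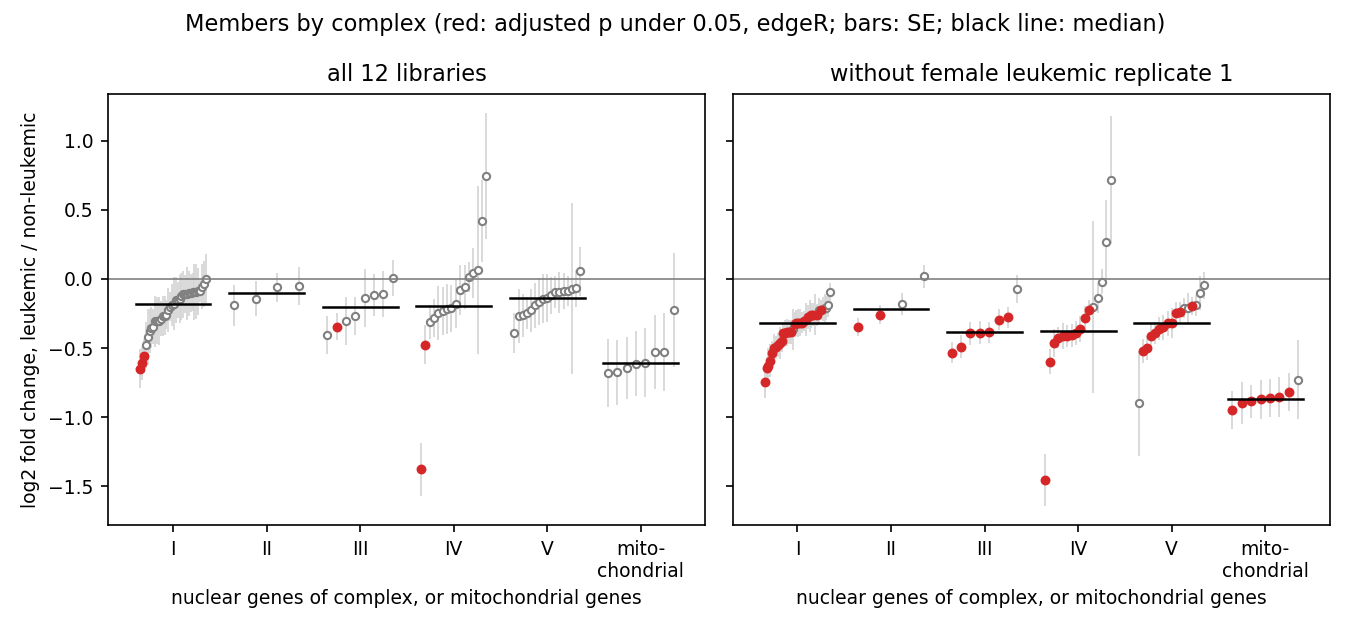
Log2 fold change of each member, leukemic over non-leukemic, by complex and genome, with SE bars, the median as a black line and red points for an adjusted p under 0.05 in edgeR. With all 12 libraries 6 points are red and without female leukemic replicate 1 there are 64, while most points lie below 0 in both panels.

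That library differed from the other 5 leukemic libraries with transcript length. Tested genes were divided into 4 equal groups by transcript length, with upper bounds of 1973, 3074 and 4602 bases for the first 3 groups. From the shortest to the longest group, the median log2 difference of female leukemic replicate 1 from the mean of the other 5 was 0.26, -0.26, -0.64 and -0.94. In the other 11 libraries these medians, each against the other 5 libraries of the condition, lay between -0.13 and 0.34. For the leukemic libraries among them, those other 5 include female leukemic replicate 1, so that this range is not independent of it. Subunit genes are mostly short, and 47 of the 78 nuclear members with a length had a transcript under 1000 bases. Their median difference in female leukemic replicate 1 was 0.70, against 0.36 for the 8 over 2000 bases, 0.64 for all nuclear members with a length and 1.12 for the mitochondrial members. Across the 78 members, which share that library, Spearman's rho of the difference with length was -0.48. In the other 11 libraries rho ran from -0.39, in male non-leukemic replicate 2, to 0.46, in female non-leukemic replicate 3. A rho of about this size, in either direction, was thus not particular to female leukemic replicate 1. The part of transcript length in the values of the members was not tested.

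**Figure D3:**
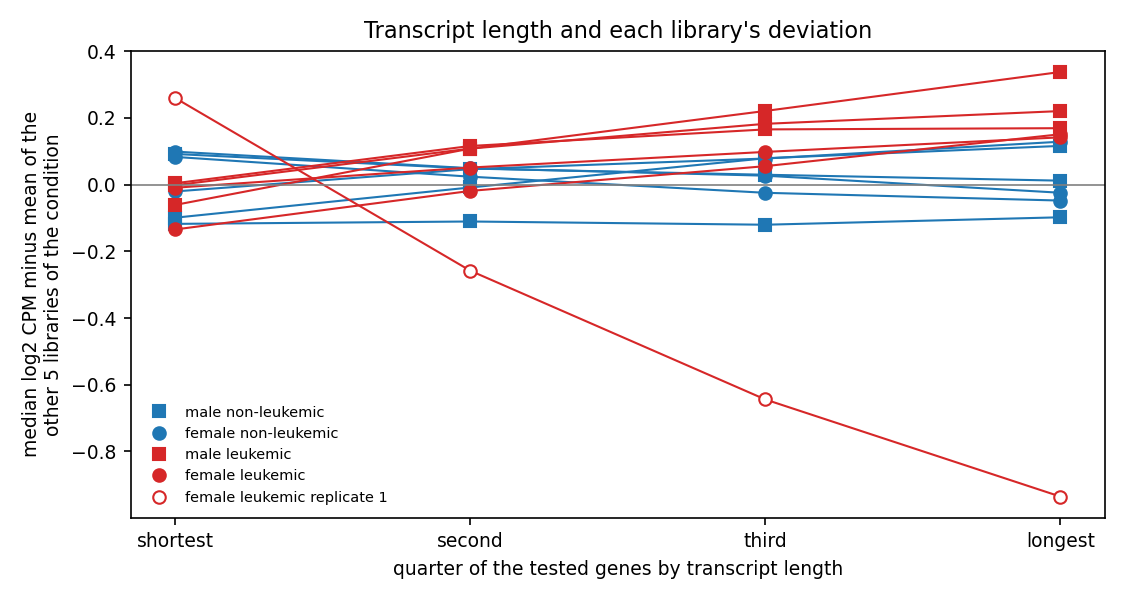
Median log2 CPM of each library minus the mean of the other 5 libraries of its condition (log2 units), for 4 groups of tested genes from the shortest to the longest transcripts. Female leukemic replicate 1 (open circles) runs from 0.26 down to -0.94, while the other 11 libraries stay between -0.13 and 0.34. It is part of the mean that each other leukemic library is set against.

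In 80 of 89 members female leukemic replicate 1 was the highest of the 6 leukemic libraries, and in 63 the highest of all 12. It was the lowest of the leukemic libraries in 6 members, among them Ndufs1, Ndufv1, Sdha, Atp5a1 and Atp5b, and the lowest of all 12 in Ndufs1, Ndufv1 and Sdha. No share over all tested genes is given for these ranks, so they are not read against a background. With all 12 libraries no member had all leukemic values on 1 side of all non-leukemic values, where 3.63% of tested genes did with leukemia lower and 5.05% with leukemia higher. Without that library 20 members did, 17 nuclear and 3 mitochondrial, all with leukemia lower, against 4.86% of tested genes lower and 10.2% higher.

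**Figure D4:**
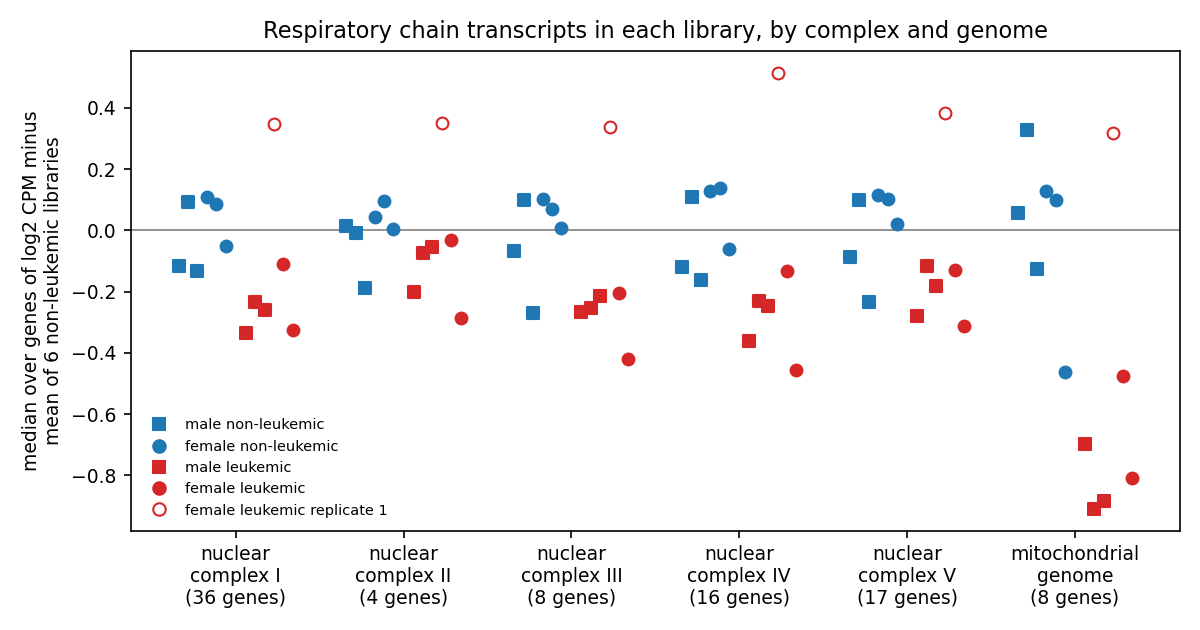
Median over the members of each complex and genome of log2 CPM minus the mean of the 6 non-leukemic libraries, for each library. Open circles, female leukemic replicate 1, lie above 0 in all 6 groups, the other leukemic libraries lie below 0 in all 6, and the mitochondrial genes have the lowest values.

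Complex I takes electrons from NADH through a peripheral arm of core subunits that hold flavin and iron-sulfur clusters. Of the 7 nuclear core genes, 1 was lower, with a median log2 fold change of -0.27 over the group, and of the 29 accessory genes 2 were lower, with a median of -0.18. The core gene was Ndufv1, which encodes the flavin-binding subunit that receives the electrons. Its level ran from 204 to 393 CPM, median 332, in the non-leukemic libraries and from 200 to 223, median 211, in the leukemic libraries. Male non-leukemic replicate 3 gave the 204 and was the only library that put the ranges in contact. Its log2 fold change was -0.61 ± 0.12 (SE), with an adjusted p of 0.00378, and -0.59 without female leukemic replicate 1.

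Ndufs1, the largest iron-sulfur subunit of the same arm, had 112 to 240 CPM, median 192, without leukemia and 85.8 to 167, median 153, with it. The ranges overlapped widely, and their lowest values came from male non-leukemic replicate 3 (112) and from female leukemic replicate 1 (85.8). At a log2 fold change of -0.48 it missed the threshold with edgeR, at an adjusted p of 0.0652. It was called lower by DESeq2 (adjusted p 0.0359), and by edgeR on genes with 5 CPM in 3 libraries (adjusted p 0.0486). Without male non-leukemic replicate 3 it passed, at an adjusted p of 0.00574.

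Both accessory genes called lower encode subunits of the membrane arm. Ndufb10 ran from 155 to 224 CPM, median 193, without leukemia and from 121 to 174, median 132, with it. Only female leukemic replicate 1, at 174, reached into the non-leukemic range, and the next leukemic value was 149. In log2 terms the difference was -0.56 ± 0.12 (SE), adjusted p 0.00703. Ndufb9 had 94.6 to 171 CPM, median 157, and 86.3 to 124, median 94.9. Its non-leukemic minimum again came from male non-leukemic replicate 3, and the other 5 lay at 147 or more, above all 6 leukemic libraries. In log2 terms it differed by -0.65 ± 0.14 (SE), adjusted p 0.00717. Exons of Ndufb9 overlap Gm49356 on the same strand over 19.5% of their bases, so reads there could belong to either gene.

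The other accessory genes, whose proteins surround the core and help its assembly, differed less. Without female leukemic replicate 1, 22 of all 29 accessory genes, Ndufb9 and Ndufb10 included, were lower. All 29 then had a negative fold change, from -0.74, the value of Ndufb9, to -0.19. Ndufb5 was at the upper end, at 0.00 with all libraries and -0.19 without that one.

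Complex II, succinate dehydrogenase, also serves the tricarboxylic acid cycle. None of its 4 genes passed with edgeR, and none had an unadjusted p under 0.05. DESeq2 and limma-voom called none either. Sdha, the flavoprotein that oxidises succinate, had 418 to 547 CPM, median 492, without leukemia. With leukemia 5 libraries lay between 491 and 540 and female leukemic replicate 1 at 343. Those 5 lay inside the non-leukemic range, and the log2 fold change was -0.06 ± 0.10 (SE) with and 0.02 without that replicate. Sdhb, the iron-sulfur subunit, differed by -0.05 in log2, and -0.18 without the library, and did not pass in either fit. For the membrane anchors the values without it were -0.26 for Sdhc (adjusted p 0.0191) and -0.35 for Sdhd (adjusted p 0.00285), against -0.14 and -0.19 with it.

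Complex III passes electrons from ubiquinol to cytochrome c. Uqcrc1, a core subunit facing the matrix, ran from 619 to 809 CPM, median 686, without leukemia and from 506 to 627, median 581, with it. The ranges met only through the 627 of female leukemic replicate 1. On the log2 scale the change was -0.35 ± 0.10 (SE), adjusted p 0.0287. This call was lost, with adjusted p of 0.0547 to 0.0990, on leaving out any of 9 libraries: female leukemic replicates 2 and 3, any male leukemic or female non-leukemic library, and male non-leukemic replicate 1. Without a low-count filter it was also lost, at an adjusted p of 0.0843. Uqcrc2, the partner of Uqcrc1 in the complex, differed by 0.01 in log2, and -0.07 without female leukemic replicate 1, neither past the threshold. Exons of other genes overlap 19.7% of its bases.

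Of the small accessory subunits of complex III and its iron-sulfur protein, edgeR called none with all libraries. Uqcr11, an accessory subunit, had 107 to 152 CPM, median 142, without leukemia and 93.3 to 145, median 102, with it. The 145 was female leukemic replicate 1, and the other leukemic libraries reached 105 and lay below all non-leukemic ones. Its log2 fold change was -0.41 (adjusted p 0.0577 with edgeR), and it was called lower by DESeq2 (adjusted p 0.0405) and limma-voom (adjusted p 0.0431). The value was -0.53 without that library (adjusted p 0.000686). Uqcrh, the hinge protein beside cytochrome c1, had -0.30, and Uqcrfs1, the Rieske iron-sulfur subunit, had -0.27. Without female leukemic replicate 1 these were -0.49 and -0.39, and both passed.

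Complex IV reduces oxygen. With all libraries, the largest difference among the 89 members was in Cox6b2, a form of a peripheral subunit known mainly from testis. Cox6b2 ran from 28.9 to 80.0 CPM, median 63.2, without leukemia and from 16.6 to 30.5, median 21.1, with it. Male non-leukemic replicates 2 and 3, at 39.4 and 28.9, were the lowest of the non-leukemic libraries, and only the last overlapped a leukemic value, that of female leukemic replicate 1. The log2 fold change was -1.38 ± 0.19 (SE), adjusted p 0.000368, and it stayed between -1.57 and -1.18 and past the threshold under all 22 alternatives. Cox6b1, the widely expressed form of the same subunit, had 302 to 377 CPM without leukemia and 239 to 475 with it. Its log2 fold change of -0.22 did not pass, and was -0.42 without female leukemic replicate 1 (adjusted p 0.00252).

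Cox6a1, the widely expressed form of another small subunit, was also lower. It ran from 438 to 571 CPM, median 480, without leukemia and from 315 to 513, median 351, with it. Only the 513 of female leukemic replicate 1 lay in the non-leukemic range, the other 5 reaching 397. Its fold change was -0.48 ± 0.14 (SE) in log2, adjusted p 0.0350. The call was lost, with adjusted p of 0.0540 to 0.111, on leaving out any of 9 libraries: female leukemic replicates 2 and 3, any male leukemic library, and replicates 1 and 2 of both non-leukemic groups. It was lost as well in the model without sex, at an adjusted p of 0.0646. Its muscle form Cox6a2 had 4.89 to 12.4 CPM without and 6.33 to 17 with leukemia, a log2 fold change of 0.42 that did not pass.

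Other isoform pairs gave no call with edgeR in the fit of all libraries. Cox4i1, the common regulatory subunit, missed the threshold at -0.31 in log2 (adjusted p 0.108) and was lower without female leukemic replicate 1, at -0.41. Cox4i2, its form linked to low oxygen, was near the detection limit at 0.338 to 1.5 CPM without and 0.758 to 1.96 with leukemia, and its log2 fold change of 0.74 did not pass. Cox7a1, the muscle form, was at 0.136 to 1.03 CPM over all libraries, and a count of 0 allows up to 3 counts, 0.1 to 0.177 CPM here. Cox7a2 and Cox8a, both widely expressed, had -0.23 and -0.18, and -0.42 and -0.36 without female leukemic replicate 1, where they passed. Cox7a2l, which joins complexes III and IV into supercomplexes, had 0.01 with the library and -0.02 without it and passed in neither. Ndufa4, named for complex I but a subunit of complex IV, had -0.08, and -0.28 without that library, where it passed. Cox8b, the muscle form of Cox8a, had 7 counts in all, and Ndufa4l2, a paralog of Ndufa4 induced by low oxygen, had 21 counts, so neither was a member. The remaining 7 nuclear genes under the minimum had between 0 and 51 counts in total.

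**Figure D5:**
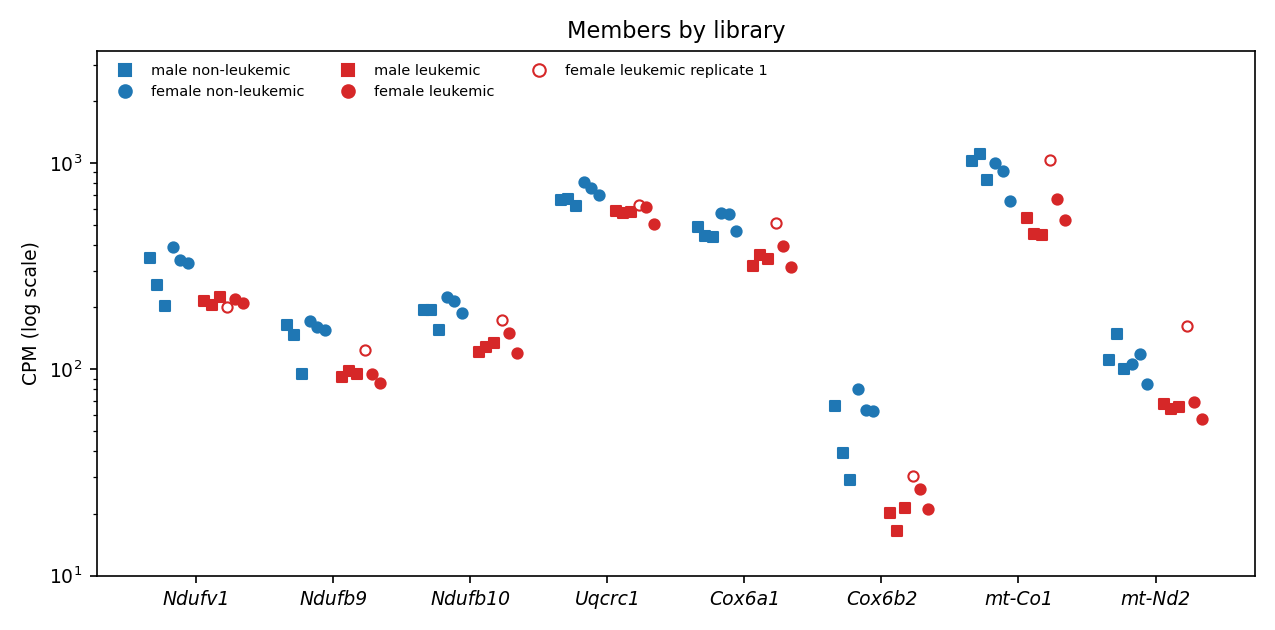
CPM on a log scale in each of the 12 libraries for the 6 members called lower in leukemia and for mt-Co1 and mt-Nd2. Female leukemic replicate 1 (open circles) lies above the other leukemic libraries in all of these except Ndufv1, where it is the lowest.

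The ATP synthase, complex V, had no call among its 17 nuclear genes with edgeR, 1 at an unadjusted p under 0.05, and none with DESeq2 or limma-voom. The catalytic head, which makes ATP, had 5 genes with a median of -0.10. The peripheral stalk, which holds the head still, had 4 genes with a median of -0.20. The ring of c subunits, which turns as protons pass, had 3 genes with a median of -0.09, and the 5 accessory membrane genes had a median of -0.19. Atp5b, the catalytic subunit, had 1739 to 2654 CPM, median 2501, without leukemia and 1760 to 2356, median 2137, with it. The leukemic range lay inside the non-leukemic one, and the log2 fold change of -0.24 did not pass with or without female leukemic replicate 1, but passed without male non-leukemic replicate 3, at an adjusted p of 0.0414. Atp5h, a stalk subunit, was the gene with the unadjusted p under 0.05, at -0.39 (adjusted p 0.0829). Without female leukemic replicate 1 it was at -0.52 (adjusted p 0.00128), and all 4 stalk genes, 4 of 5 accessory genes, 2 of 5 head genes and 1 of 3 ring genes were lower. Of the 100-base windows of Atp5h, 29.5% also occur in another annotated transcript. Exons of other genes overlap 43.8% of the bases of Atp5o, another stalk gene, so reads there could belong to either.

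Beside the enzyme itself, Atpif1 was lower. It encodes the protein that blocks the ATP synthase from running backwards, and its symbol lies outside the rule for members. Atpif1 ran from 190 to 428 CPM, median 360, without leukemia and from 131 to 263, median 144, with it. Only female leukemic replicate 1, at 263, lay in the non-leukemic range, the others reaching 160. In log2 terms the change was -1.12 ± 0.20 (SE), adjusted p 0.00200, and it passed under all 22 alternatives.

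The 8 mitochondrial genes had log2 fold changes of -0.68 to -0.23, with a median of -0.61, against -0.15 for the nuclear genes. None passed with edgeR. At an unadjusted p under 0.05, 5 were lower, and DESeq2 and limma-voom each called 3 lower: mt-Nd1, mt-Nd5 and mt-Co1. mt-Co1, the subunit that holds the oxygen-reducing site of complex IV, had 654 to 1108 CPM, median 956, without leukemia and 450 to 1035, median 535, with it. The 1035 came from female leukemic replicate 1 and the 654 from female non-leukemic replicate 3, and the next leukemic value, 670, lay just above the latter. Its log2 fold change was -0.68 ± 0.24 (SE), adjusted p 0.0675. Without female leukemic replicate 1 it was -0.90, adjusted p 0.00139.

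The subunits of the proton-pumping membrane arm of complex I gave a like picture. mt-Nd1, at the junction of the arms, had 411 to 708 CPM, median 591, without leukemia and 287 to 682, median 315, with it. The leukemic libraries other than female leukemic replicate 1 reached 369 and lay below every non-leukemic library. Its log2 fold change was -0.68 ± 0.25 (SE), adjusted p 0.0754, and -0.95 without that library, adjusted p 0.000559. mt-Nd2 had 84.9 to 148 CPM without leukemia and 57.5 to 163 with it, where the other 5 leukemic libraries reached 69.3. Its log2 fold change was -0.53 with female leukemic replicate 1 and -0.89 without it, adjusted p 0.000356.

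mt-Nd4, mt-Nd5 and mt-Nd6, further subunits of that arm, had log2 fold changes of -0.61, -0.64 and -0.61, and -0.87, -0.86 and -0.85 without female leukemic replicate 1, where all 3 passed. mt-Nd6 is the gene made from the opposite strand of mitochondrial DNA, and it shares 2.7% of its bases with mt-Nd5, which the unstranded kit cannot separate. mt-Cytb, the mitochondrial subunit of complex III that binds ubiquinol, had 683 to 1205 CPM without leukemia and 523 to 1365 with it, and differed by -0.53 in log2, or by -0.82 without the library, adjusted p 0.00161. mt-Nd3 was at 1.95 to 4.08 CPM without and 1.38 to 6.16 with leukemia, and passed in neither fit, at -0.23 and -0.73. The ribosomal RNA genes of the same genome lay on the same side: mt-Rnr2 was lower at -0.67 (adjusted p 0.0450), and mt-Rnr1 had -0.51 (adjusted p 0.15). Without female leukemic replicate 1 both passed, at -0.88 and -0.74.

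Within each sex, the males with and without leukemia differed in 5 members, all lower: Cox6b2, Ndufb10, mt-Co1, mt-Nd4 and mt-Nd5, against 4.04% of tested genes lower. In the females 2 were lower, Cox6b2 and Ndufv1, against 4.59%. None was higher in either sex, with edgeR, DESeq2 or limma-voom or at an unadjusted p under 0.05, where the background of edgeR was 3.34% in the males and 3.84% in the females. The median log2 fold change over members was -0.37 in the males and -0.04 in the females, and over the mitochondrial members -1.05 and -0.14. For mt-Co1 the log2 fold change was -1.19 ± 0.27 (SE) in the males, adjusted p 0.0216, and -0.17 ± 0.27 (SE) in the females, adjusted p 0.773. The difference between the sexes was tested as an interaction, and edgeR called no member and none of all 15758 genes. DESeq2 and limma-voom called no member either, and 4 members had an unadjusted p under 0.05 with edgeR. The 3 with the lowest p were mt-Co1, at 1.02 (p 0.0200), Ndufa1, an accessory subunit of complex I, at 0.82 (p 0.0349), and mt-Nd4, at 1.00 (p 0.0371), all with an adjusted p of 0.819.

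The female libraries include female leukemic replicate 1. Without it, 33 members were lower in the males and 23 in the females, none higher, against backgrounds of 6.77% and 4.82% lower and 6.08% and 4.38% higher, and the medians were -0.35 and -0.36. Over the mitochondrial members the medians were then -1.04 and -0.64, and the interaction again had no call, with 2 members at an unadjusted p under 0.05. Without male non-leukemic replicate 3 as well, a choice that favours lower calls, 31 were lower in the males and 33 in the females and none higher. The backgrounds were 8.37% in either direction in the males, and 7.53% lower and 7.0% higher in the females. With 3 libraries in each group the counts within a sex also moved with other libraries. In the males the count was 0 without male leukemic replicate 1 or 2, 1 without male leukemic replicate 3 or male non-leukemic replicate 1 or 2, 2 without female non-leukemic replicate 1 or 2 or female leukemic replicate 2, and 3 without female non-leukemic replicate 3. In the females it was 0 without female non-leukemic replicate 1 or female leukemic replicate 3, 1 without female non-leukemic or leukemic replicate 2, and 4 without male non-leukemic replicate 3. No share over all genes is given for these fits, and their counts are not read against a background.

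The nuclear genes of the chain are known targets of the factors NRF1, GABPA of the ETS family, YY1 and the estrogen-related receptors. In RefSeq promoters of build GRCm38.p6, which span 300 bases around the start of each gene, 67 of the 81 nuclear members were found. The letters of NRF1, GCGC and TGCGC with any base between them, were found on either strand in 16 of the 67 (23.9%), against 4.78% of 27025 promoters. CCGGAAG of the ETS family was in 16 (23.9%, against 9.12%), AAGATGGC of YY1 in 9 (13.4%, against 2.88%) and AAGGTCA of the estrogen-related receptors in 8 (11.9%, against 4.66%). Of the 6 members called lower, 5 had a promoter, 2 with NRF1 letters, 1 with ETS letters and none with the other motifs.

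The promoters of 3 complex IV genes are shown because their levels were compared above: Cox6a1 and Cox6b2, called lower, and Cox6b1, the sister form of Cox6b2. Each runs 5′ to 3′ along the gene and ends before its start: bases 162 to 63 before the start for Cox6a1 (chr5:115349021-115349120, minus strand), and the last 100 bases for Cox6b1 (chr7:30626115-30626214, minus strand) and Cox6b2 (chr7:4753095-4753194, minus strand). Capitals mark the NRF1 letters in Cox6a1 and the ETS letters, read on the other strand, in Cox6b1.

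Cox6a1: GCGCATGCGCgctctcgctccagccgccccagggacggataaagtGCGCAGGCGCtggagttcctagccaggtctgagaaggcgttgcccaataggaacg
Cox6b1: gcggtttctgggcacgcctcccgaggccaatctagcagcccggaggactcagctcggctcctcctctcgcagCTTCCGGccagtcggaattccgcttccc
Cox6b2: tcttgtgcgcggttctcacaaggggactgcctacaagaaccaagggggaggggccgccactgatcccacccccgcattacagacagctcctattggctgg

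The stretch of Cox6a1 held 2 NRF1 matches and that of Cox6b1 1 ETS match, while none of the 4 motifs was in the stretch of Cox6b2. The promoter of Cox6a1 also held 1 ETS match, outside the stretch shown. These letters are a description of the windows and not binding sites. Of the factors, Nrf1 itself was lower, by -0.40 ± 0.13 (SE) on the log2 scale, adjusted p 0.0441. It ran from 122 to 158 CPM without leukemia and from 65.5 to 142 with it, and the ranges overlapped. Gabpa (-0.01), Yy1 (-0.11) and Esrra (0.25) did not pass.

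Genes that build, feed or regulate the chain were counted on 6 further lists, where the background is again 9.2% lower and 8.71% higher, or 12% and 12.1% without female leukemic replicate 1. Several of the shares called are near it or below it. Of 50 tested assembly factors 2 were lower and none higher with edgeR, with a median of -0.05. At an unadjusted p under 0.05, 6 were lower and 4 higher, and DESeq2 and limma-voom each called 3 lower and none higher. The 2 called by edgeR were Cox11, which delivers copper to cytochrome c oxidase, at -0.89 ± 0.23 (SE), adjusted p 0.0178, and Tmem126b, a complex I assembly factor, at -0.50 ± 0.13 (SE), adjusted p 0.0205. Without female leukemic replicate 1, 9 were lower. The call of Cox11 was lost on leaving out 1 of 3 libraries and that of Tmem126b on leaving out 1 of 5, with adjusted p of 0.0516 to 0.0539 and 0.0515 to 0.0742. For Cox11 these were female leukemic replicate 3 and replicate 1 of both non-leukemic groups, and for Tmem126b any male leukemic library and female non-leukemic replicates 2 and 3. Tmem126b also missed the threshold without a filter (adjusted p 0.0869) and without sex in the model (0.0523).

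Of 21 electron carrier and ubiquinone genes 5 were lower and 2 higher, with a median of -0.09. Sqor, which passes electrons from sulfide to ubiquinone, had 90.1 to 124 CPM without leukemia and 31.8 to 70.5 with it. No leukemic library reached the non-leukemic range, and the log2 fold change was -1.20 ± 0.18 (SE), adjusted p 0.000587. Coq7, an enzyme of ubiquinone synthesis, was lower at -0.60 ± 0.13 (SE), adjusted p 0.00592. Cyc1, the cytochrome c1 subunit of complex III, whose symbol lies outside the rule for members, was lower at -0.35 ± 0.11 (SE), adjusted p 0.0459, as were Coq5 at -0.40 and Coq9 at -0.36. Coq2 at 0.46 and Dhodh, a ubiquinone-reducing enzyme of pyrimidine synthesis, at 0.38 were higher.

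Of 27 genes of the tricarboxylic acid cycle and pyruvate entry 5 were lower and 2 higher, with a median of -0.10. Pcx, which makes oxaloacetate from pyruvate, had 22.6 to 76.0 CPM without leukemia and 11.7 to 27.4 with it. The ranges overlapped at the lower end of the non-leukemic libraries, and the log2 fold change was -1.71 ± 0.31 (SE), adjusted p 0.00213. Idh2, the mitochondrial isocitrate dehydrogenase that yields NADPH, was higher at 0.44 ± 0.10 (SE), adjusted p 0.0111. Pyruvate dehydrogenase genes were among the lower ones, Pdhb at -0.38 and Pdhx at -0.57, with the pyruvate carrier Mpc2 at -0.52 and Dlst at -0.50, and the activating phosphatase Pdp1 was higher at 0.77.

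Of 34 genes that copy and read mitochondrial DNA 2 were higher and 1 lower, with a median of 0.08. Top1mt, the mitochondrial topoisomerase, was higher at 0.72 ± 0.16 (SE), adjusted p 0.00800, as was Fastkd1 at 0.93, and Ptcd1, which acts on mitochondrial RNA, was lower at -0.59 ± 0.13 (SE), adjusted p 0.00827. Tfam, which packages mitochondrial DNA, and Polrmt, which transcribes it, had 0.24 and 0.27 and did not pass. Of 43 import and inner membrane genes 1 was higher and 1 lower, with a median of -0.04, and without female leukemic replicate 1 the counts were 2 and 10. Slc25a4, which exchanges ADP for ATP across the inner membrane, had 79.5 to 108 CPM without leukemia and 153 to 225 with it. All 6 leukemic libraries lay above all 6 non-leukemic ones, with 0.83 ± 0.12 (SE) in log2, adjusted p 0.000413. Dnajc19, of the import motor, was lower at -0.44 ± 0.14 (SE), adjusted p 0.0440, and lost that call, at adjusted p of 0.0673 to 0.131, on leaving out any of 10 libraries, all but male non-leukemic replicate 3 and female leukemic replicate 1. That call was also lost with RLE size factors (adjusted p 0.0527), without a filter (0.0838), with the filter of 5 CPM (0.0524) and without sex in the model (0.0681).

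Of 23 regulators 2 were higher and 2 lower, with a median of -0.11. Bnip3l, a receptor that marks mitochondria for removal, ran from 119 to 156 CPM without leukemia and from 67.9 to 72.8 with it. The leukemic libraries, female leukemic replicate 1 included, lay close together and below all non-leukemic libraries. On the log2 scale the change was -1.08 ± 0.10 (SE), adjusted p 2.76e-05. Hif1a, the oxygen-regulated transcription factor, was higher at 1.06 ± 0.13 (SE), adjusted p 0.000145, with 47.6 to 85.6 CPM without leukemia and 78.2 to 195 with it. The 78.2 was female leukemic replicate 1, the only leukemic library in the non-leukemic range. Myc was also higher, at 0.50. Ppargc1a, a coactivator of mitochondrial genes, was at 0 to 1.7 CPM and did not pass, and Ppara was at 0 in every library.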

How the data were processed

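The authors deposited unnormalized read counts for each gene, with 1 column for each of the 12 libraries in the table. Per the labels' protocols, RNA of sorted cells was amplified as cDNA with a low-input kit and fragmented for Illumina libraries, which marks neither strand nor molecule. The submitters' processing notes list the aligner STAR (2.7.9a) and the counter featureCounts of Subread (2.0.1) beside build GRCm39, with the read tools fastp (0.23.1) and bcl2fastq (2.19.1) and, for statistics, R (4.0.2) and DESeq2 (1.28.1), and their settings are not given in the sources used here.

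From the counts, edgeR 4.0.16 in R 4.3.3 was run on all genes kept by filterByExpr over the 4 groups, with TMM scaling and the quasi-likelihood F test. The main model had sex and condition, contrasts within each sex and the interaction came from group means, and an adjusted p (Benjamini and Hochberg, all genes tested) under 0.05 was called. CPM used total counts, with a prior count of 2 on the log2 scale, and SE is the log2 fold change over the square root of F. Alternatives were RLE size factors, library sizes without mitochondrial genes, DESeq2 1.42.0, limma-voom (limma 3.58.1), a block for the replicate number, a model without sex, no filter or one of 5 CPM in 3 libraries, a threshold of 1.5-fold on the change, fits restricted to the groups of 1 sex, and fits without each library or without both male non-leukemic replicate 3 and female leukemic replicate 1. On simulated data for the main comparison, 48% of genes changed 2-fold and 82% of those changed 4-fold were recovered over 15200 genes, and 4.41% of 136 calls were false.

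The members, the 6 pathway lists, the 9 cell marker lists (macrophage, erythroid, T and NK, neutrophil, B and plasma, eosinophil with basophil and mast, platelet, stem and progenitor, proliferation) and the tests were chosen with earlier results of these data known. Named by rule were the mitochondrial members, complex II, the isoforms of complex IV, Atpif1, the 4 nuclear members of complexes I, III, IV and V with the lowest p, the 2 lowest of each pathway list and the 3 lowest of the interaction, and other genes were named after their values were seen. The values of 1 member are not reported here. Of 319 list symbols 5 were missing from the table. Shared sequence and transcript lengths come from GENCODE transcripts of GRCm38, where 86 of 89 members were found, and promoters from RefSeq (GRCm38.p6), neither being the authors' build. Same-numbered libraries of different groups had correlations of -0.11 to 0.08 between their deviations, so replicate numbers were not taken to pair them. Statistics by the authors were not used here.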

Additional observations from a re-analysis of the deposited data

Results flagged for a closer look

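In groups of 6 libraries per condition, a library was marked when its gap to the nearest other library exceeded 0.625 of the group's range, Dixon's 95% value. Of 84 groups tested 27 were marked, 24 of them for female leukemic replicate 1, where chance marks about 1 in 20 groups, and the genes share their libraries. Female leukemic replicate 1 stood above the other 5 leukemic libraries in the share of counts of the mitochondrial members (0.383%) and of the nuclear members of complexes I (0.580%), III (0.219%) and IV (0.404%).

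Among mitochondrial genes its values were 682 CPM for mt-Nd1, 163 for mt-Nd2, 6.16 for mt-Nd3, 177 for mt-Nd4, 305 for mt-Nd5, 92.8 for mt-Nd6 and 1365 for mt-Cytb. Among nuclear genes of complexes I to III they were 179 CPM for Sdhc, 503 for Sdhd, 124 for Ndufb9, 145 for Uqcr11 and 207 for Uqcrh. Those of complexes IV and V were 327 CPM for Cox7a2, 451 for Cox8a, 482 for Ndufa4, 154 for Cox5b, 314 for Atp5h, 348 for Atp5o and 274 for Atp5j2. In Sdha, at 343 CPM, the same library stood below the others. Its part in these genes of the length pattern given above was not tested.

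The other 3 marks were low values in non-leukemic libraries. Female non-leukemic replicate 3 had 95.9 CPM of mt-Nd4, against 142 to 161 in the other 5. Male non-leukemic replicate 3 had 94.6 CPM of Ndufb9, against 147 to 171, and 178 CPM of Uqcrfs1, against 220.3 to 245.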

How the results depend on the processing

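Low counts limit the values of mt-Nd3, Cox4i2, Cox7a1 and Atp5l, the members with the lowest counts. Of the 100-base windows of mt-Nd3 97.6%, and of those of Atp5l 69.0%, also occur in other annotated transcripts. The part of shared sequence in these low counts was not tested. In the comparison over both sexes, the medians of every complex and genome stayed negative under each alternative. In the females that of nuclear complex IV was 0.01 with edgeR and 0.03 with DESeq2. The count of nuclear members lower, 6, was 1 against a minimum change of 1.5-fold, 59 without both male non-leukemic replicate 3 and female leukemic replicate 1, and 4 to 57 over fits without 1 library. That of mitochondrial members lower, 0, was 3 with DESeq2, limma-voom and the replicate block, 7 without both libraries, and 0 to 7 without 1 library. The count in males, 5, was 3 with RLE size factors, 9 with DESeq2, 0 against 1.5-fold, 10 in a fit of only the libraries compared, 31 without both libraries and 0 to 33 without 1. The count in females, 2, was 5 with DESeq2, 0 against 1.5-fold, 33 without both libraries and 0 to 23 without 1. No member was called higher in any of these fits. A share over all genes is given above only for the main fit and the fits without female leukemic replicate 1. The other counts are not read against a background. The replicate block changed no call of a named nuclear gene and added mt-Nd1, mt-Nd5 and mt-Co1. Some log2 fold changes that did not pass with all libraries changed sign. Sdha was at 0.0089 and Cox7a2l at -0.047 without both libraries, and without 1 library Sdha ran from -0.11 to 0.018, Sdhb from -0.18 to 0.047, Cox7a1 from -0.20 to 0.27, Cox7a2l from -0.020 to 0.080, Ndufa4 from -0.28 to 0.022 and Ndufa1 from -0.30 to 0.013. Apart from leaving out libraries, the cause of these moves was not tested. Of 1075 values of named genes under an alternative, 942 kept direction and side of the threshold, 60 passed only there, 57 no longer passed and 16 changed sign.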
